A study of Homo sapiens with 44 samples.

Results

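The apolipoprotein L family (APOL) was followed in Ccd-18Co cells, a fibroblast line from human colon, under 10 cytokines. The processed table lists 6 APOL symbols among its 40663, and 5 of them are described here, APOL1, APOL2, APOL3, APOL4 and APOL6. The 5 genes were chosen by their levels in these same libraries, so each cytokine's difference from unstimulated cells is given below as a description, with its error and without a p-value. The remaining symbol, APOL5, had 0 counts in all 44 libraries.

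APOL proteins bind lipids and anionic membranes, and most of them stay inside the cell. APOL1 is the exception, a secreted protein that travels on high-density lipoprotein and lyses trypanosomes by forming pores in their membranes. Several of the genes are known targets of interferons, the cytokines that signal through JAK kinases and STAT transcription factors to raise antiviral and antibacterial defence genes.

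Bulk RNA-seq covered 11 groups of 4 libraries each, unstimulated cells and cells given IFNα, IFNγ, TNF, IL-1β, TGF-β1, oncostatin M (OSM), IL-6, IL-13, IL-17A or IL-22. All groups were the same line, kept in serum-free medium for 72 h before stimulation for 24 h. Doses were 10 ng/ml, except 0.1 ng/ml for IL-1β in the labels and methods. A figure legend of the study gives a lower dose for IL-1β, so the dose behind the IL-1β values is uncertain. The labels number the replicates without saying whether they were separate cultures, so p-values measure the spread between these libraries, which may be technical. As a model, the groups share the limits of a line with its own genotype grown on plastic, and each cytokine was read at 1 dose and 1 time.

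Total counts ranged from 742173 to 2213424 per library, with a median of 1480883. Levels are given as CPM, estimated counts scaled to the normalised library size. A count of 3 in a library was taken as the floor of detection and corresponded to 1.39 to 3.85 CPM, for counting error only. Of 8 fibroblast markers, 6 (COL1A1, COL1A2, COL3A1, DCN, LUM and VIM) were at or above 337 CPM in every library, THY1 ranged from 16.9 to 198 CPM and PDGFRB from 1.33, under the floor, to 14.9 CPM, and none of the 4 endothelial or the 4 leukocyte markers examined rose above 3.34 CPM. Of the epithelial markers, EPCAM, CDH1 and KRT20 stayed at or below 1.71 CPM, while VIL1 reached 26.6 CPM. Fewer cells that express a gene and less RNA per cell cannot be told apart in bulk samples.

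The family lies on chromosome 22. On GRCh38, with GENCODE release 44, it spans 619.1 kb. APOL6 lies at chr22:35648446-35668404 on the plus strand, alone with the silent APOL5 beside it. The other 4 members fall within 127.2 kb, in the order APOL3 (chr22:36140329-36166177, minus strand), APOL4 (chr22:36189124-36204840, minus), APOL2 (chr22:36226209-36239954, minus) and APOL1 (chr22:36253071-36267530, plus). A gap of 471.9 kb that holds the splicing factor gene RBFOX2 separates them from APOL6. Transcripts of APOL1 shared 4.99% of their 31-base words with other APOL genes and those of APOL2 shared 4.21%, against 2.01% for APOL3, 1.16% for APOL4 and 0.00997% for APOL6. With genes outside the family the shares were 9.5% for APOL1, 4.07% for APOL2, 0% for APOL3, 11.1% for APOL4 and 5.71% for APOL6. Reads from such stretches are divided between the genes by estimation, and low values of APOL1, APOL3 and APOL4 are uncertain to that extent.

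APOL2, an intracellular member of the family, was the main APOL transcript of these fibroblasts. In unstimulated cells it measured 220.3, 349.2, 286.4 and 280.7 CPM, and APOL6, a member with a BH3-like motif that has been linked to cell death, measured 50.92, 103.6, 86.54 and 74.46 CPM. The rest of the family was at the edge of detection. APOL1 had 0 counts in all 4 unstimulated libraries, APOL3 had at most 2 and APOL4 at most 1. Per kilobase of the canonical transcript, APOL2 stood at 117 ± 21.7 CPM per kb (SD, n = 4) and APOL6 at 7.84 ± 2.20, so that APOL2 made up 93.5% ± 0.535 of the family's length-scaled level. Its share was at least 92.1% in each of the 44 libraries.

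**Figure D1:**
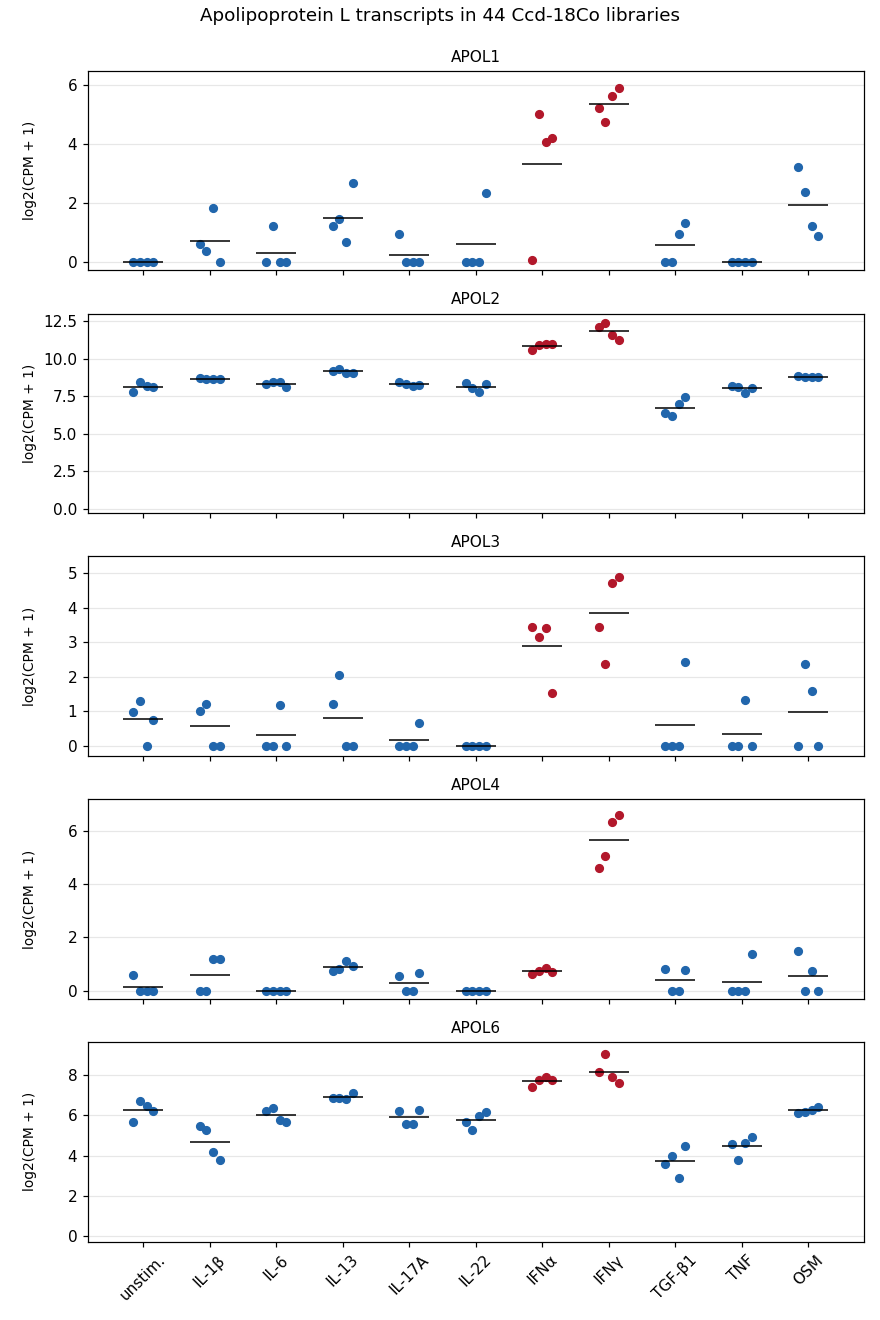
Level of each member, as log2(CPM + 1), in the 44 libraries; points are libraries, black bars means of the plotted values, and red marks the interferon groups. APOL2 and APOL6 are measured in every group, APOL1 and APOL3 rise clear of 0 mainly in the red groups, and APOL4 only in IFNγ, at 23.35 to 95.41 CPM.

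APOL2 was highest with IFNγ. The 4 IFNγ libraries held 4531, 5459, 3118 and 2431 CPM and the 4 IFNα libraries 1508, 1952, 2045 and 2051 CPM. Every interferon library lay above every other library, and every IFNγ library above every IFNα library. The log2 fold change over unstimulated cells was 3.77 ± 0.21 (SE) for IFNγ and 2.73 ± 0.21 for IFNα, which are 13.7-fold and 6.65-fold.

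The other cytokines placed APOL2 in a narrower order. IL-13 gave 592.8, 627.7, 536.1 and 536.4 CPM, OSM 458.6, 443.4, 447.6 and 444.5 CPM, and IL-1β 413.2, 403.7, 401.5 and 404.7 CPM. These 3 groups did not overlap each other or the unstimulated libraries, and their log2 fold changes over unstimulated cells were 1.01 ± 0.20, 0.66 ± 0.20 and 0.52 ± 0.20. IL-6 (323 ± 36.8 CPM), IL-17A (316 ± 21.0), IL-22 (284 ± 50.3) and TNF (262 ± 37.0; SD, n = 4 each) overlapped the unstimulated group and each other. TGF-β1 stood at the bottom with 81.10, 70.19, 124.3 and 172.5 CPM, all below the lowest unstimulated library, a log2 fold change of -1.33 ± 0.20.

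APOL6 moved in the direction of APOL2 under the interferons, by less on the log2 scale, and in the opposite direction under IL-1β. With TNF APOL6 was lower, while APOL2 overlapped the unstimulated group. With IFNγ it measured 283.2, 538.2, 239.3 and 196.5 CPM and with IFNα 171.9, 219.8, 238.3 and 221.1 CPM. These groups overlapped each other and both lay above all unstimulated libraries, with log2 fold changes of 2.00 ± 0.29 and 1.44 ± 0.29. IL-13 followed with 118.2, 116.6, 112.0 and 139.4 CPM, also above the unstimulated range (log2 fold change 0.63 ± 0.29).

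At the low end of APOL6 stood 3 cytokines. TGF-β1 gave 10.92, 14.91, 6.352 and 21.28 CPM, TNF 22.59, 12.92, 24.01 and 28.89 CPM, and IL-1β 43.68, 37.07, 17.15 and 12.90 CPM. All 12 libraries lay below the lowest unstimulated library, while neighbouring groups in this order overlapped. The log2 fold changes were -2.53 ± 0.34, -1.80 ± 0.32 and -1.48 ± 0.31. Of 8 fibroblast markers, 2 were called lower with TNF (THY1 and COL1A1), 1 with IL-1β (THY1) and 0 with TGF-β1. Among all genes 2.34%, 1.3% and 1.06% were called lower, in the same order. The list's median log2 fold change was -0.89, -0.71 and -0.49. It was also below 0 with IFNγ (-0.504) and IFNα (-0.365), where APOL6 was high. With IL-17A 1 marker was called lower. The summed level of the 8 markers was 21000 to 27300 CPM with TNF, 23600 to 31800 with IL-1β and 25300 to 30100 with TGF-β1. It was 16600 to 33500 CPM with IFNγ and 28800 to 40700 in unstimulated libraries. The part of the markers in the APOL6 levels was not tested. OSM (75.5 ± 7.75 CPM), IL-6 (64.7 ± 15.5), IL-17A (61.0 ± 17.0) and IL-22 (55.2 ± 14.7; SD, n = 4 each) overlapped the unstimulated group.

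**Figure D2:**
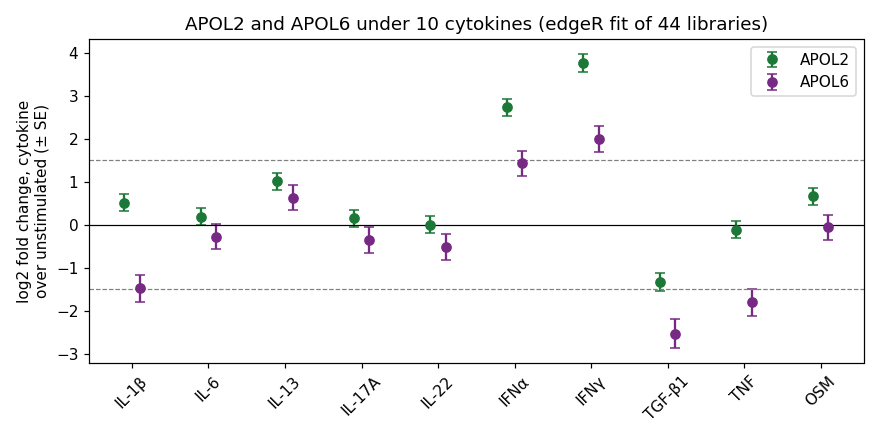
Log2 fold change of APOL2 and APOL6 under each cytokine over unstimulated cells; bars are standard errors of the fit and dashed lines mark the fold threshold of 1.5. Both genes sit high with the interferons and low with TGF-β1, whereas with TNF APOL2 stands at -0.12 and APOL6 at -1.80.

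The 2 genes can be compared within a library, where depth and scaling cancel. Unstimulated cells held 23.1, 29.7, 30.2 and 26.5 APOL6 counts for every 100 of APOL2. IL-1β cells held 10.6, 9.18, 4.27 and 3.19, and TNF cells 7.66, 4.66, 11.5 and 10.9. The IFNα libraries lay close together at 10.8 to 11.7 and the IFNγ libraries at 6.25 to 9.86, all below the unstimulated range. IL-6 (15.1 to 23.7), IL-13 (18.6 to 26.0), IL-17A (14.3 to 25.4) and IL-22 (14.2 to 28.3) reached into the unstimulated range. TGF-β1 (5.11 to 21.2) and OSM (14.7 to 19.3) lay below it, although APOL6 with OSM overlapped the unstimulated libraries.

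**Figure D3:**
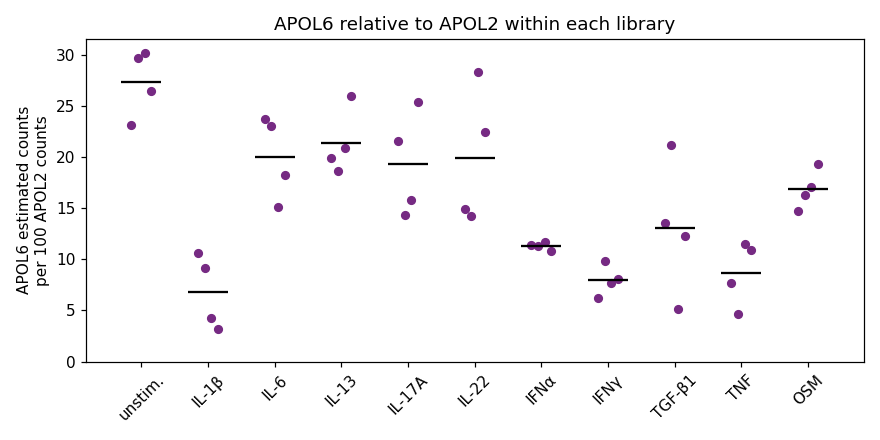
APOL6 estimated counts per 100 APOL2 counts in each library; points are libraries and bars group means. The 4 unstimulated libraries sit at 23.1 to 30.2 and the IL-1β, TNF, IFNα and IFNγ libraries at or below 11.7.

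APOL1, APOL3 and APOL4 passed the filter on low counts only through the interferon libraries, so that they had to differ there. APOL1 with IFNγ measured 36.16, 25.83, 48.55 and 58.44 CPM. With IFNα it measured 31.15, 15.62 and 17.44 CPM in 3 libraries, while replicate 1 held an estimated 0.067 counts. Against unstimulated cells, where all libraries were at 0, the mean level was at least 21.6-fold higher with IFNγ and at least 8.22-fold higher with IFNα, taken against 3 counts per library. These values depend on single libraries. They fell to 18.9 without IFNγ replicate 4 and to 5.65 without IFNα replicate 2.

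APOL3, an interferon-induced protein that dissolves the membranes of bacteria in the cytosol, had 13, 5, 29 and 40 counts in the IFNγ libraries and 18, 12, 12 and 3 in the IFNα libraries, against 2, 2, 0 and 1 in the unstimulated libraries. The ratio of summed, depth-scaled counts was 21.5 for IFNγ (95% interval 8.88 to 68.0) and 9.15 for IFNα (3.64 to 29.5), intervals that cover counting error only. The interferon libraries all lay above the unstimulated libraries, but IFNα replicate 4 only by 3 counts against at most 2. Its 3 counts stood at the floor of detection.

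APOL4 was the most uneven. It had 31, 39, 93 and 134 counts in the IFNγ libraries and exactly 1 count in each of the 4 IFNα libraries. In the other 9 groups no library held more than 3. The ratio of IFNγ to IFNα was 90.4 (95% interval 35.0 to 334, counting error only), and APOL4 with IFNα could not be told from the floor at this depth.

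Outside the interferon groups, APOL1 was listed with 13.81, 7.0, 2.01 and 1.0 estimated counts with OSM, where unstimulated cells had none. Only replicates 1 and 2 exceeded 3 counts. The mean was at least 1.88-fold higher with OSM, taken against 3 counts per unstimulated library, and at least 1.08-fold without OSM replicate 1. With IL-13 it had 2.01, 2.22, 1.0 and 6.0 estimated counts. With TNF it stood at 0 in all 4 libraries, as in unstimulated cells.

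Against unstimulated cells a gene counted as called when its adjusted p in edgeR's quasi-likelihood test over 9513 genes was under 0.05 and its log2 fold change exceeded 1.5 in size. Since the members were chosen with these values known, the counts are printed beside the share of all genes called and nothing is read from them. With IFNγ all 5 members were called higher, where 2.4% of genes were, and with IFNα 2 were (APOL1 and APOL2), where 2.46% were. OSM called APOL1 (0.536% of genes called higher), TGF-β1 called APOL6 lower (1.06%) and TNF called APOL6 lower (2.34%). Just inside the fold threshold lay APOL6 with TNF at -1.80, and just outside it APOL6 with IL-1β at -1.48 and with IFNα at 1.44.

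No member was called with IL-1β (2.78% of genes called in either direction), IL-6 (0.0105%), IL-13 (1.47%), IL-17A (0.452%) or IL-22 (0%). At an unadjusted p under 0.05 (edgeR) the members numbered 2, 0, 3, 0 and 1 in that order. Of all 9513 genes 1610, 233, 1486, 1195 and 1037 stood under it, and nothing is read from these counts. DESeq2 called 0 members in each. The OSM call of APOL1 was lost, leaving 0 members, without any 1 of the 4 unstimulated libraries or without OSM replicate 1 or 2. APOL6 was called with IL-1β, giving 1 member, without unstimulated replicate 1 or IL-1β replicate 1 or 2, and APOL2 joined APOL6 with TGF-β1, giving 2, without TGF-β1 replicate 4. APOL6 also joined the members called with IFNα, giving 3, without unstimulated replicate 2 or 3 or IFNα replicate 1.

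IFNα and IFNγ signal through different receptors, and the family's levels under them were compared directly. The members were chosen in these same libraries, so the p-values below are descriptions and no independent test. APOL2 was higher with IFNγ than with IFNα by 1.04 ± 0.19 on the log2 scale (edgeR's quasi-likelihood test, Benjamini-Hochberg adjusted p = 0.00018), which is 2.06-fold. APOL6 differed by 0.56 ± 0.28 (edgeR adjusted p = 0.239, 95% interval -0.0025 to 1.13), an interval that includes 0 and also differences above 2-fold, so neither a difference nor its absence was shown. For the other 3 members, which were tested only because they were high in these groups, the contrast is given without a p-value. APOL1 was higher by 1.40 ± 0.83 and APOL3 by 1.20 ± 0.93 with overlapping libraries, and APOL4 had the counts given above. The number past the adjusted p was 2 (APOL2 and APOL4), beside 4.46% of all genes higher with IFNγ, and nothing is read from it.

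The single interferon libraries did not rank the members alike. Among the IFNγ libraries, replicate 2 held the highest APOL2 (5459 CPM) and APOL6 (538.2 CPM) and the lowest APOL1 and APOL3. Replicate 4 held the lowest APOL2 (2431 CPM) and APOL6 (196.5 CPM) and the highest APOL1 (58.44 CPM), APOL3 (28.48 CPM) and APOL4 (95.41 CPM). Interferon genes did not rank the libraries alike either, and those named were picked after their values were seen. STAT2, a carrier of the IFNα signal, measured 1723, 3282, 1055 and 703.5 CPM in the 4 IFNγ libraries, which put the libraries in the order of APOL2 and APOL6. GBP5, a guanylate-binding protein, measured 287.7, 266.6, 590.4 and 647.9 CPM, which put them in the order of APOL1 and APOL3, while GBP1, at 9675, 9699, 7699 and 6821 CPM, had the order of APOL2. Of the 5 guanylate-binding proteins 1 had the order of APOL2, 2 that of APOL1 and 2 neither, and of the 11 tested interferon receptor and signal genes the numbers were 1, 4 and 6. The total counts of the 4 libraries lay between 1125442 and 1423038. Among the IFNα libraries, replicate 1 held the lowest APOL1, APOL2 and APOL6 and the highest APOL3. The part of the replicate in these differences was not tested.

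**Figure D4:**
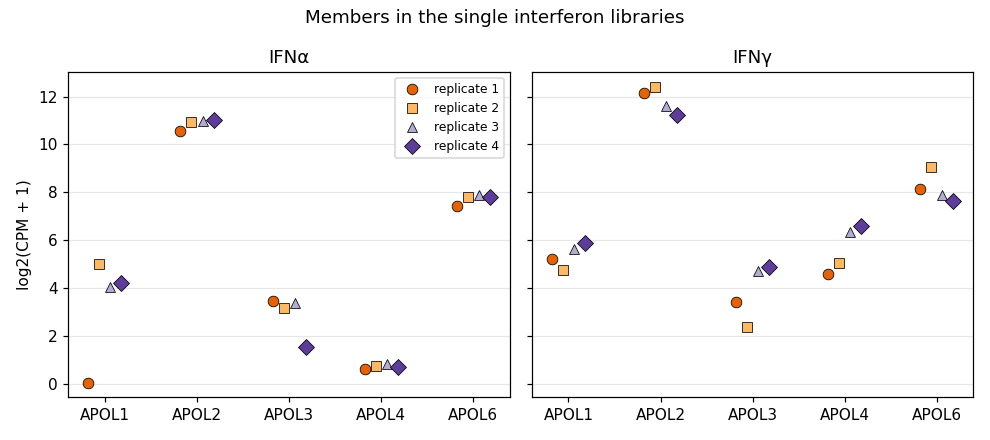
Level of each member, as log2(CPM + 1), in the 4 IFNα and the 4 IFNγ libraries, with 1 symbol per replicate number, which names a library within its group. In IFNγ the order of the libraries for APOL2 and APOL6 differs from that for APOL1, APOL3 and APOL4, and in IFNα replicate 1 stands near 0 for APOL1.

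TNF was set directly against both interferons. A member that is high with interferon had to differ in this contrast, so it is a description. All 5 members were lower with TNF than with IFNγ (4.51% of genes passed as lower), by 3.89 ± 0.22 on the log2 scale for APOL2 and 3.80 ± 0.33 for APOL6. With IFNα as the other arm, 4 members were lower (8.35% of genes), by 2.85 ± 0.21 for APOL2 and 3.24 ± 0.32 for APOL6, and APOL4 was at the floor in both groups. APOL3 did not pass there without TNF replicate 1, 2 or 4, which left 3 members.

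TNF and IL-1β both act through NF-kB, and OSM and IL-6 both through the gp130 receptor chain. These contrasts, too, use the libraries in which the members were chosen, and their p-values are descriptions. Between TNF and IL-1β 0 members passed at an adjusted p under 0.05 in edgeR, where 1.15% of genes passed in either direction. At an unadjusted p under 0.05 there was 1 member, APOL2, beside 1091 of all 9513 genes. APOL2 was lower with TNF by 0.63 ± 0.20 (edgeR adjusted p = 0.115, 95% interval -1.03 to -0.23), and the 2 groups did not overlap. APOL6 differed by -0.32 ± 0.33 (edgeR adjusted p = 0.767, 95% interval -0.99 to 0.35). Between OSM and IL-6 0 members passed in edgeR, where 2.67% of genes did. At an unadjusted p under 0.05 there were 3 members, beside 1170 of all 9513 genes. DESeq2 passed 0 members in either contrast. APOL2 was higher with OSM than with IL-6 by 0.47 ± 0.19 (edgeR adjusted p = 0.263, 95% interval 0.08 to 0.87).

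Genes that carry the interferon signal were described beside the family. Of 14 receptor and signal genes listed, 11 had enough counts. With IFNα 4 were called higher and 0 lower, among them IRF9 (log2 fold change 2.41 ± 0.62), STAT2 (2.20 ± 0.30) and the transcription factor IRF1 (1.52 ± 0.51). With IFNγ 5 were called higher and 0 lower, with IRF1 at 4.52 ± 0.52, IRF9 at 2.18 ± 0.62 and STAT2 at 1.93 ± 0.30 among them. The list's median log2 fold change was 1.23 with IFNα and 1.31 with IFNγ, beside -0.0061 and -0.0115 over all genes tested. With TNF 1 gene of the list was called, the receptor chain IFNAR2 (2.28 ± 0.39). Among all genes tested, 2.46% were called higher with IFNα, 2.4% with IFNγ and 1.85% with TNF.

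The guanylate-binding proteins, GTPases that coat intracellular pathogens, were called higher in 5 of 5 cases with each interferon. Among all genes 2.46% were called higher with IFNα and 2.4% with IFNγ. With the other cytokines 0 of 5 were called. Over the 10 cytokines between 0% and 4.19% of all genes were called in either direction, so this 0 is near that background. At an unadjusted p under 0.05 (edgeR) there were 3 with IL-13, 2 with TNF, 0 with IL-6 and 1 with each remaining cytokine. Of all 9513 genes 1486, 2236 and 233 were under it with IL-13, TNF and IL-6, and 1037 to 1799 with the remaining ones. The highest log2 fold change in the list was 4.10 with TNF and 2.39 with IL-22, so no absence of change was shown. GBP1 rose from 291 ± 49.2 CPM in unstimulated cells to 2034 ± 109 with IFNα and 8473 ± 1450 with IFNγ (SD, n = 4). GBP2 rose from 40.0 ± 9.86 to 135 ± 20.1 and 1365 ± 187 CPM. The list's median log2 fold change was 2.81 with IFNα and 5.09 with IFNγ.

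Genes of the NF-kB pathway were described for IL-1β and TNF, where APOL6 was low. Of 10 listed genes 8 were tested, and 3 were called higher with each of the 2 cytokines. Among all genes 1.85% were called higher with TNF and 1.47% with IL-1β. The inhibitor NFKBIA stood at 376.6 ± 24.3 CPM with TNF and 270.2 ± 27.9 with IL-1β, against 44.6 ± 22.9 in unstimulated cells (SD, n = 4). The feedback enzyme TNFAIP3 was higher by 5.42 ± 0.85 and 4.52 ± 0.84 on the log2 scale and the subunit NFKB1 by 1.81 ± 0.51 and 1.73 ± 0.51. The list's median was 1.98 with TNF and 1.5 with IL-1β, beside -0.0181 and -0.0077 over all genes tested. With TGF-β1, where APOL6 was lowest, 0 of the 8 were called, beside 0.641% of all genes called higher and 1.06% lower. That 0 is near the background and is no result about the list. The part of the NF-kB pathway in the APOL6 levels was not tested.

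Genes next to the family were examined under the same rule. Of 11 listed neighbours on chromosome 22, 8 were tested and edgeR called 0 with any of the 10 cytokines. At an unadjusted p under 0.05 there were 2 for IFNα and 1 for IFNγ, beside 2034 and 2216 of all 9513 genes. The share of all genes called in either direction was between 0% and 4.19% for the 10 cytokines, so 0 of 8 is near that background and is no result about the neighbours. MYH9, the non-muscle myosin gene next to APOL1, differed from unstimulated cells by -0.23 ± 0.21 with IFNγ and by 0.17 ± 0.21 with IFNα on the log2 scale. RBFOX2, which like MYH9 was named after its values were seen, lies between APOL6 and the other members and passed the adjusted p alone in opposite directions, by 0.68 ± 0.22 with IFNα (edgeR adjusted p = 0.0417) and -0.67 ± 0.23 with IFNγ (adjusted p = 0.0478). The list's median log2 fold change was 0.12 with IFNα and 0.22 with IFNγ.

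**Figure D5:**
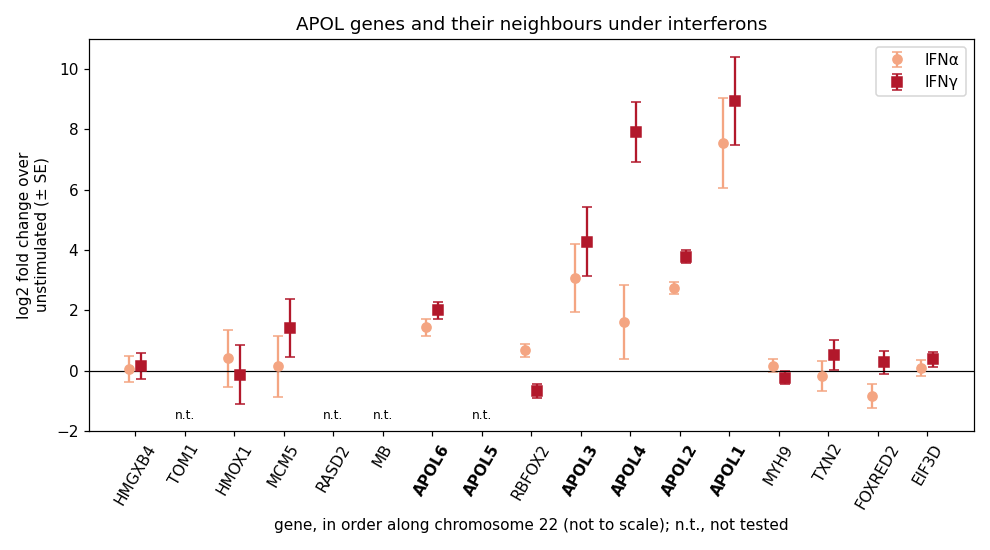
Log2 fold change over unstimulated cells with IFNα (circles) and IFNγ (squares) for the APOL genes, in bold, and their neighbours in order along chromosome 22; bars are standard errors and n.t. marks genes with too few counts to test. The tested neighbours lie between -0.83 and 1.41, and the fitted values of APOL1, APOL3 and APOL4 depend on the prior count because unstimulated cells were at or near 0.

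Of 9 other listed genes that carry the apolipoprotein name or travel on lipoproteins, 4 had enough counts, APOE, APOO, APOOL and CLU, and edgeR called 0 of them with any cytokine (1 at an unadjusted p under 0.05 with IFNα and 1 with IFNγ). The endothelial gene APOLD1, which shares a domain with the family, was tested and called with none. Of 5 listed partners of APOL proteins, NCS1, PI4KB and PHB2 were tested and none was called, with 1 at an unadjusted p under 0.05 for OSM and 0 for each other cytokine. With so few genes these counts, too, are near the background. Of all 9513 genes 2034, 2216 and 1455 were under that unadjusted p with IFNα, IFNγ and OSM.

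Across the 11 group means of log2 CPM, members resembled each other to different degrees, with Pearson's r from 0.571 between APOL4 and APOL6 to 0.964 between APOL1 and APOL3. The groups share 1 table, and the interferon groups weigh heavily in each of these values, which are given as descriptions. The genes outside the family most like APOL1 were the antisense RNA USP30-AS1 (0.967), the phospholipase gene PLAAT4 (0.961) and the tryptophanyl-tRNA synthetase gene WARS1 (0.952). Whether strand was used in counting is not given in the sources used here, so USP30-AS1 cannot be told from its sense partner. WARS1 measured 350 ± 115 CPM in unstimulated cells, 1530 ± 410 with IFNα, 6750 ± 1640 with IFNγ and 890 ± 205 with OSM (SD, n = 4).

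APOL2 was most like the butyrophilin BTN3A1 (0.959), the ADP-ribosyltransferase PARP14 (0.956) and the chemokine CCL8 (0.951). PARP14 stood at 82.7 ± 11.4 CPM in unstimulated cells, 1060 ± 184 with IFNα, 1180 ± 178 with IFNγ and 45.9 ± 17.3 with TGF-β1 (SD, n = 4). APOL3 was most like USP30-AS1 (0.984), the lysosomal thiol reductase IFI30 (0.971) and the transcription factor ETV7 (0.966).

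APOL4 was most like genes of MHC class II presentation, CD74 (0.990), HLA-DRA (0.989) and HLA-DMB (0.982). HLA-DRA measured 200 ± 42.6 CPM with IFNγ and 0.623 ± 1.25 with IFNα, and CD74 409 ± 205 and 1.74 ± 2.27 (SD, n = 4), so that these genes, like APOL4, were high in the IFNγ libraries and near 0 with IFNα.

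The highest correlations of APOL6 were with the glutathione transferase GSTK1 (0.949), the surface receptor CD47 (0.940) and the protocadherin PCDH18 (0.939). CD47 stood at 470 ± 75.8 CPM in unstimulated cells, 771 ± 81.6 with IFNα, 340 ± 103 with TNF and 243 ± 88.5 with TGF-β1 (SD, n = 4), and PCDH18 at 193 ± 14.2, 410 ± 46.2, 135 ± 34.5 and 121 ± 33.5 in the same groups.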

How the data were processed

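Bulk RNA-seq of Ccd-18Co cells was analysed in 44 libraries, 4 in each of 11 groups taken from the sample titles. The authors used kallisto (version 0.48.0) and deposited estimated counts per gene symbol, unscaled for depth, after quality control in FastQC (version 0.11.9) with MultiQC (version 1.14). The submitters' processing notes name these tools and the build hg38. The transcriptome release and the use of strand are not given in the sources used here, and 2 RNA extraction kits are named without saying which library used which. Of the 5 members, some share sequence with genes outside the family as well, between 0% and 11.1% of their 31-base words.

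The deposited values were rounded to whole numbers, and edgeR (version 4.0.16, R version 4.3.3) fitted 1 quasi-likelihood model to all libraries (filterByExpr by group, 9513 genes; trimmed mean of M values; 1 coefficient per group), with Benjamini-Hochberg adjustment within each comparison. CPM use the unrounded counts and the normalised library size. The 10 cytokines were each compared with unstimulated cells, and 5 pairs of cytokines with each other in the same model. The 10 comparisons share the unstimulated libraries. Counting intervals are exact 95% intervals of summed counts. The members, the gene lists and the contrasts were chosen with earlier results of these data known. Genes named were the members, genes of the lists past the call rule (at most the 4 of largest change) and, for each member, the 3 genes of highest correlation over the 11 group means of log2 CPM (prior count 2). Positions and lengths came from GENCODE release 44. Replicates were compared pair by pair, with 0 identical pairs and at least 3.26 times the sampling variance between libraries. On simulated data of IFNγ against unstimulated cells with 9219 genes, 173 of 200 changed genes were called (86.5%), with 2 unchanged genes called. The share called at the levels and fold changes of the APOL members was not tested. Alternatives were DESeq2 (version 1.42.0), its size factors, other count filters, the groups compared alone, a replicate block, other fold thresholds and leaving out each library.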

Additional observations from a re-analysis of the deposited data

Results flagged for a closer look

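Of 55 groups of 4 libraries (5 members in 11 groups), 34 held a library above 3 counts, and in 2 of these 1 library stood apart from the other 3 by Dixon's criterion, where 1.7 would be flagged by chance. APOL1 was at 4.02 CPM in IL-22 replicate 4 and at 0 in the other IL-22 libraries. APOL3 was at 4.4 CPM in TGF-β1 replicate 4 and at 0 in the other TGF-β1 libraries. The first of these rests on 6.28 estimated counts and the other on 6.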

How the results depend on the processing

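The numbers of members called higher with IFNγ (5) and lower with TNF (1), and of members passing between IFNγ and IFNα (2) and between TNF and IFNγ (5), did not move beyond 1.5 times under the alternatives tried. An absolute log2 fold change above 1 gave 1 member with IL-1β, 1 with IL-13 and 2 with TGF-β1, and no fold-change threshold gave 1, 1 and 2, and 2 with OSM. Keeping all genes with any count gave 1 with IL-13 and 1 between TNF and IL-1β. With only the libraries compared, the filter left 2 members in these fits, and the counts were 1 with IFNα, 0 with OSM, 2 between TNF and IFNα, 1 between TNF and IL-1β and 1 between OSM and IL-6. DESeq2 called 0 with OSM, where APOL1 had no adjusted p (unadjusted p = 0.00262). Leaving out 1 library gave 0 to 1 with IL-1β, 1 to 2 with TGF-β1 and 0 to 1 with OSM. Log2 fold changes reversed for APOL2 with IL-22 (-0.012 with any count, and -0.10 to 0.12 over the fits without 1 library). Over the fits without 1 library they also reversed for APOL3 with IL-13 (-0.66 to 0.89), TGF-β1 (-3.34 to 0.96) and OSM (-0.18 to 1.36). The same held for APOL2 with TNF (-0.22 to 0.013), APOL6 with OSM (-0.22 to 0.11) and APOL6 between TNF and IL-1β (-0.54 to 0.023). APOL1 with IL-22 (0 to 4.22) fell to 0 without IL-22 replicate 4, which is counted among the reversals below. None of these had been called. Judged by the adjusted p alone, without the fold threshold, 396 log2 fold changes of members kept direction and side with 1 library left out, 12 reversed and 16 lost it (APOL1 and APOL2 with OSM, APOL3 between TNF and IFNα). Under both thresholds, the members called with IFNα were 2 to 3 without 1 library. Apart from the count filter, the cause was not tested. No pairing by replicate number was used in the main fit. In 0 of 15 comparisons did every pair correlate above 0.1 (range -0.125 to 0.281). Still, 22 of 44 libraries correlated best with their own number out of 4. Whether libraries of 1 number share an effect was not tested. The replicate block changed no member count, such as 5 with IFNγ, and moved all calls from 336 to 350 with IFNγ and from 43 to 56 with IL-17A. Levels under 1.39 to 3.85 CPM were not measurable at this depth.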
